A study of Mus musculus with 4 samples.

Results

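The genes described here make, break down and read out cyclic AMP (cAMP) in the heart. They are the adenylyl cyclases (Adcy), the cyclic nucleotide phosphodiesterases (Pde), the catalytic and regulatory subunits of protein kinase A (PKA; Prkac and Prkar) and the numbered A-kinase anchoring proteins (Akap). Members were taken by symbol from the deposited table, which lists 46603 mouse genes and holds 55 of these. By role they are 10 cyclases, 8 cAMP-specific, 8 dual-specificity and 8 cGMP-specific phosphodiesterases, 2 catalytic and 4 regulatory PKA subunits, and 15 AKAPs. Of the 55 members, 44 averaged 10 or more reads a library and were compared, 10 had fewer and Akap4 was at 0 in every library. The families were chosen with earlier results of these data known.

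The 4 groups were wild-type (WT) mice given saline, WT mice given isoproterenol, P2Y6-null (KO) mice given saline and P2Y6-null mice given isoproterenol, each with 1 RNA library from heart ventricles. P2Y6 is a receptor for the extracellular nucleotide UDP, and isoproterenol is an agonist of the beta-adrenergic receptors. All mice were C57Bl6/J and 8 to 12 weeks old, and were injected into the peritoneum every day for 7 days, with isoproterenol at 50 mg/kg/day in the treated groups. The labels do not say how the null allele was made, or whether a library holds 1 heart or a pool.

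In a cardiomyocyte, noradrenaline or isoproterenol binds a beta-adrenergic receptor, the stimulatory G protein switches on an adenylyl cyclase, and the cAMP it makes releases the catalytic subunits of PKA from their regulatory subunits. PKA then phosphorylates calcium channels, phospholamban and troponin I, which makes the beat stronger and the relaxation faster. AKAPs hold PKA beside these targets, and phosphodiesterases keep the cAMP in small pools around them. In the nucleus PKA activates CREB, which binds a DNA element called the cAMP response element (CRE).

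The libraries held between 18771198 and 25637369 reads in listed genes. Levels are given as CPM, the deposited unit (reads of a gene for every 1000000 reads in the library). A fold is the ratio of reads of 2 libraries after TMM scaling, with its 95% counting interval in parentheses, and the rule for calling a gene higher or lower was an interval wholly beyond 1.5-fold. With 1 library a group such a ratio has neither a replicate check nor a p-value. The intervals hold counting error only, and they describe these libraries rather than the groups of mice. Scaling by total reads instead moves the log2 median over all genes by 0.18 in the KO pair and 0.21 between the treated libraries, and calls that depend on this are named beside the gene. The targeted gene P2ry6 was at 5.11 and 5.89 CPM in the WT libraries and at 0.566 and 0.533 CPM in the KO libraries. Ventricular cardiomyocyte markers were all detected, 10 of 10, and summed to between 64409 and 82335 CPM.

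The treated KO library also stood apart in its cell type markers. Values without a named library run from WT (saline, then isoproterenol) to KO (saline, then isoproterenol), here and below. The 12 macrophage markers summed to 518, 496, 462 and 1139 CPM. The 10 fibroblast markers summed to 3333, 4687, 2801 and 11801 CPM. The 10 ventricular cardiomyocyte markers summed to 82335, 76331, 80400 and 64409 CPM, with 6 of the 10 lower in the KO pair, or 2 with total-count scaling. The 7 atrial markers summed to 318, 321, 229.6 and 970.2 CPM. Of these, Nppa, which stressed ventricles also make, gave 68.5, 123, 65.3 and 700.5 CPM. In the KO pair 4 of the 7 were higher and 0 lower, with log2 ratios from -0.64 to 6.75. Between the saline libraries 2 were lower in KO and 0 higher, with log2 ratios from -4.36 to -0.02. The share of atrial tissue in each library was not tested. All of these macrophage, fibroblast and atrial markers had reads in every library. In bulk RNA fewer cells of a type and less RNA per cell cannot be told apart, and this holds for every member below.

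CRE letters in the start-site windows are shown first, because CREB is the transcription factor at the end of this pathway. RefSeq windows of 300 bases (GRCm38.p6; 250 bases before the start to 50 after it) were found for 44 of the 55 members, 86 windows in all. The full element TGACGTCA lay in 2 member windows (2.33%), against 1.79% of all 32851 windows, and both were overlapping windows of Prkar1a, the most abundant PKA regulatory subunit gene. Its 5-base core TGACG, counted on either strand and also inside the full element, lay in 20.9% of member windows and 20.8% of all windows. By gene the core was found in 16 of 44 members (36.4%) and in 23.0% of all genes, with 19 of the members having more than 1 window. The stretches below are from Prkar1a, which has the full element, and from Adcy7 and Pde1a, both called higher in the KO pair below. They run 5′ to 3′ on the strand of the gene, with the full element or the core in capitals (CGTCA is the core read from the other strand). They lie at chr11:109650887-109650916 (plus strand) for Prkar1a, -62 to -33 from a start site and with the element 38 bases past another annotated start, at chr8:88282892-88282991 (plus strand) for Adcy7, and at chr2:80039043-80039092 (minus strand) for Pde1a. No GENCODE M21 exon overlaps them. The windows shown for Adcy7 and Pde1a are the only ones with a core, 1 of 3 and 1 of 4 for these genes, and no window of Adcy1, Akap1 or Pde4c holds it. Of the other members called below, Prkar1b has a core at -49 from a start site, not shown, and Adcy6 had no window. A match is a run of letters and not a known binding site.
Prkar1a: gagcgaggcgcatTGACGTCAgcagccgaa
Adcy7: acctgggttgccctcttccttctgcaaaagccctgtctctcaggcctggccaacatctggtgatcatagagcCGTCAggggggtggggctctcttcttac
Pde1a: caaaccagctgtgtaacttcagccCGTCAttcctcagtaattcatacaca

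On the scale of CPM per kilobase of exon, which allows genes to be compared, 2 PKA subunit genes were the most abundant of the 55 members. Averaged over the 4 libraries, the regulatory subunit Prkar1a stood at 126 and the catalytic subunit Prkaca at 94.2 CPM per kilobase. Akap1, the anchor of the outer mitochondrial membrane, followed at 39.9 and the main cardiac cyclase Adcy6 at 31.4. Among phosphodiesterases the leading levels were 19.4 for Pde2a, 12.9 for Pde4a, 11.5 for Pde6d and 8.40 for Pde3a. The second cardiac cyclase, Adcy5, was at 13.9 and the type II regulatory subunit Prkar2a at 17.4. At the other end, Adcy2, Adcy10, 5 of the 8 cGMP-specific phosphodiesterases (the Pde6 genes of photoreceptors apart from Pde6d) and 4 AKAPs had fewer reads than the minimum. Akap2 had 3 reads in each library, but 84.4% of its exon bases are shared with Pakap, which is listed at 0 in all libraries, so its level is uncertain. For Akap4, the 3 reads that a count of 0 allows correspond to between 0.117 and 0.16 CPM.

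**Figure D1:**
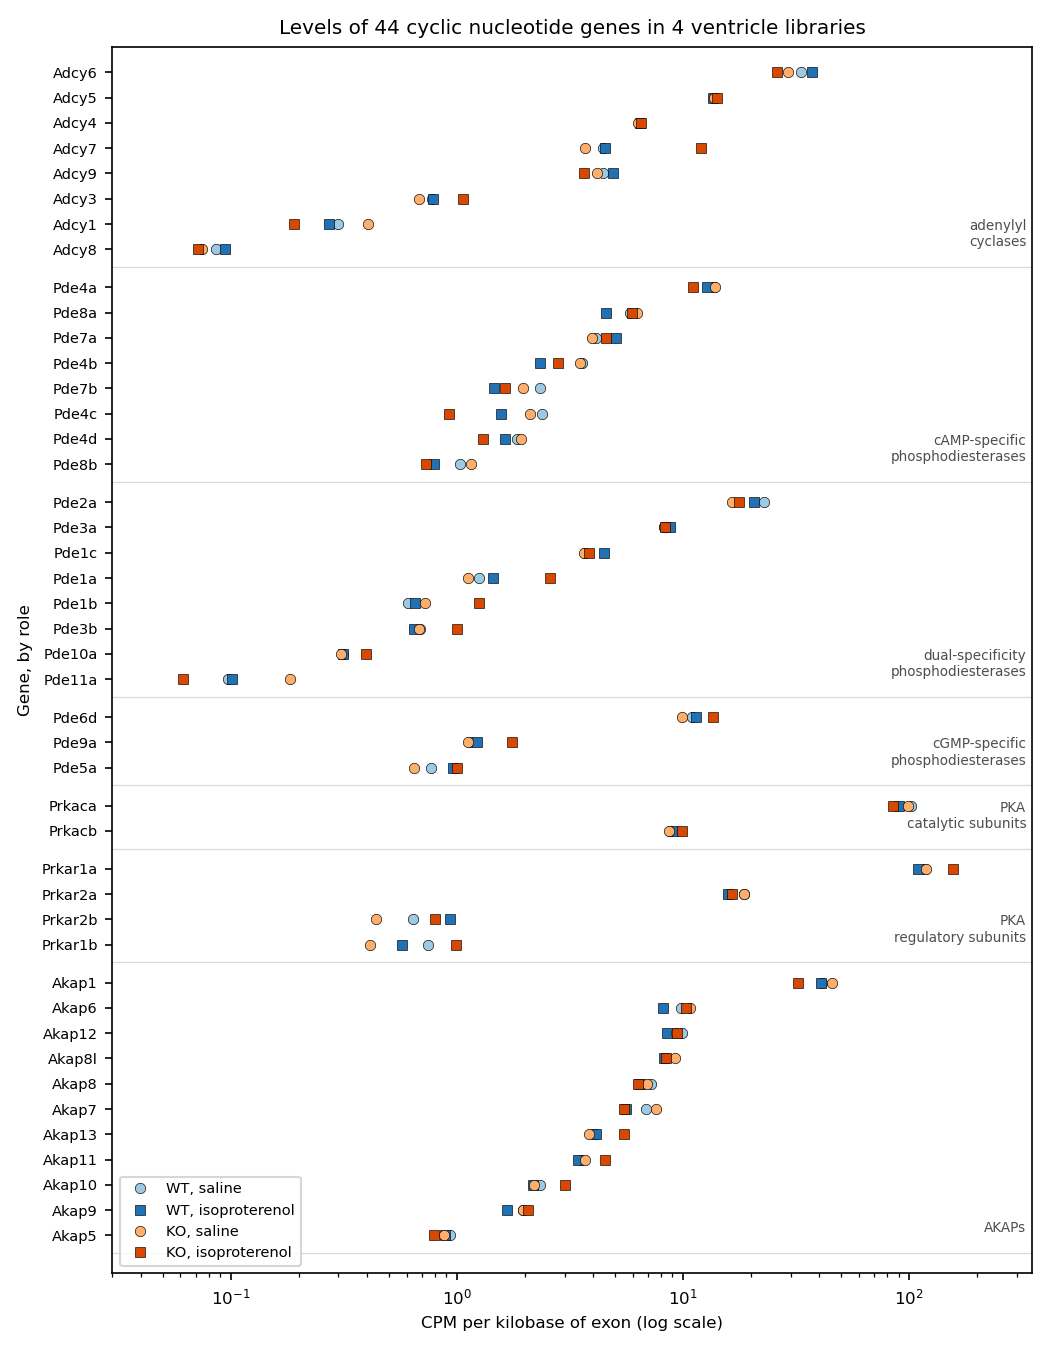
Level of each of the 44 compared genes (vertical axis, grouped by role) in CPM per kilobase of exon on a log axis, with 1 point per library. The 4 libraries lie close together for most genes, while the treated KO library stands to the right for Adcy7 and Pde1a and to the left for Pde4c and Adcy1.

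In WT ventricles 0 of the 44 members were higher and 0 were lower after isoproterenol, where 0.86% of all 14301 genes compared were higher and 0.797% lower. In KO ventricles 2 members were higher (Adcy7 and Pde1a) against 7.09% of all genes, and 3 were lower (Adcy1, Akap1 and Pde4c) against 4.22%. The median log2 ratio of the members was 0.03 in WT and -0.15 in KO, and that of all genes 0.00 in both. With total-count scaling the KO median was 0.03, while that of all genes was 0.18. Between the saline libraries 0 members were higher and 0 lower in KO, against 0.273% and 0.217% of all genes. Between the isoproterenol libraries Adcy7 was higher in KO (1 member, against 4.2% of all genes), and Adcy6 and Pde4c were lower (2 members, against 1.8%). For the difference of both isoproterenol responses, KO minus WT on the log2 scale, 2 members lay above 1.5-fold (Adcy7 and Prkar1b, against 3.83% of all genes) and 1 below it (Akap1, against 1.73%). Counts of 0 to 3 among 44 members are near these background shares and say nothing particular of the families. A difference within a family, measured inside a library, does not depend on the scaling and is given with each role.

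**Figure D2:**
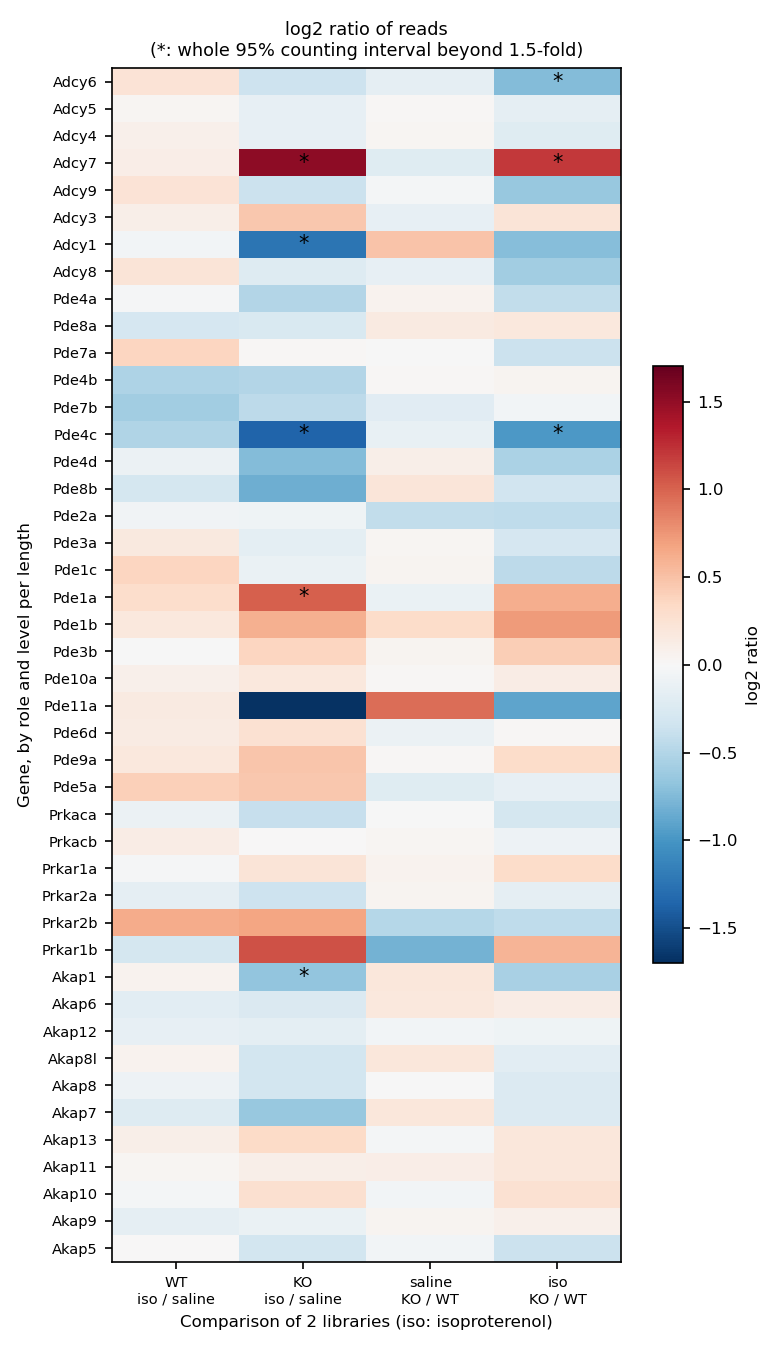
log2 ratio of reads of the 44 compared genes (rows, by role) in 4 comparisons of 2 libraries (columns), in colour, with a star where the whole 95% counting interval lies beyond 1.5-fold. The stars are in the KO isoproterenol over saline column (5 genes) and the KO over WT column for isoproterenol (3 genes), and none stand in the WT isoproterenol over saline or the saline KO over WT column.

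Among the cyclases, Adcy7 stood out in the treated KO library. Adcy7, a cyclase stimulated by G protein beta-gamma subunits and well known from blood and immune cells, was at 29.7 CPM in WT saline, 30.4 CPM in WT isoproterenol, 24.9 CPM in KO saline and 80.8 CPM in KO isoproterenol. The first 3 libraries lay within a narrow range and the fourth was far above them. In the KO pair Adcy7 was 2.86-fold higher after isoproterenol (2.6 to 3.16), and in the WT pair the ratio was 1.08 (0.97 to 1.2). The log2 responses differed by 1.41 (1.2 to 1.61), and the treated KO library was 2.29-fold above the treated WT library (2.09 to 2.52). The call held under each scaling tried. In the same KO pair 9 of 12 macrophage markers were higher and 0 lower, and in the WT pair 1 was higher; their part in the Adcy7 values was not tested.

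Adcy6, which with Adcy5 gives most of the cAMP of the cardiomyocyte, differed in the opposite direction. It was at 227 CPM in WT saline, 253 CPM in WT isoproterenol, 197 CPM in KO saline and 176 CPM in KO isoproterenol, so both WT libraries lay above both KO libraries. After isoproterenol it was 1.18-fold higher in WT (1.13 to 1.22) and 1.27-fold lower in KO (1.21 to 1.33). Between the treated libraries it was 1.66-fold lower in KO (1.59 to 1.74), or 1.44-fold with total-count scaling (1.37 to 1.5), which ends the call. Between the same libraries 6 of 10 ventricular cardiomyocyte markers were lower in KO and 0 higher, or 0 lower with total-count scaling. Their part in the Adcy6 values was not tested. In CPM, before TMM scaling, Adcy5 hardly varied, at 100.4, 97.3, 98.6 and 102 in the same order of libraries. Adcy4, a cyclase also known from vessels, was as even in that unit, at 29.9, 30.1, 29.6 and 30.4 CPM. On the scale of the folds both lay lowest in the treated KO library, whose TMM factor was the largest (1.096). In Adcy6, 8.92% of the exon bases are overlapped by a gene on the opposite strand, and whether counting used the strand is not given in the sources used here.

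The remaining cyclases were low. Adcy1, a cyclase switched on by calcium and calmodulin, was at 3.74, 3.43, 5.05 and 2.40 CPM (96, 71, 116 and 45 reads). It was 2.37-fold lower after isoproterenol in KO (1.68 to 3.45), with a call that total-count scaling ends (2.09-fold, 1.48 to 3.04). The KO saline library held its highest level, 1.39-fold above WT saline (1.06 to 1.85). Adcy9 was 1.18-fold higher after isoproterenol in WT (1.04 to 1.33) and 1.29-fold lower in KO (1.13 to 1.48), from levels of 22.9, 25.5, 21.6 and 19.0 CPM.

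The cyclase mixture can be read inside each library, where scaling plays no part. Adcy6 took 54.1%, 56.7%, 51.6% and 42.1% of all cyclase reads in the 4 libraries. Adcy7 took 7.08% (exact 95% interval 6.6 to 7.58), 6.81% (6.31 to 7.35), 6.5% (6 to 7.04) and 19.3% (18.4 to 20.2). Summed cyclase levels, before TMM scaling, were 420, 446, 382 and 419 CPM, and unlike the shares these sums depend on the scaling. The reads of Adcy7 per read of Adcy5 were 0.296, 0.312, 0.252 and 0.793 (0.741 to 0.849), with the treated KO library far from the others. The reads of Adcy6 per read of Adcy5 were 2.26 (2.16 to 2.37), 2.6 (2.47 to 2.74), 2 (1.9 to 2.1) and 1.73 (1.63 to 1.83), so this ratio was higher in the treated library of the WT pair and lower in that of the KO pair.

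**Figure D3:**
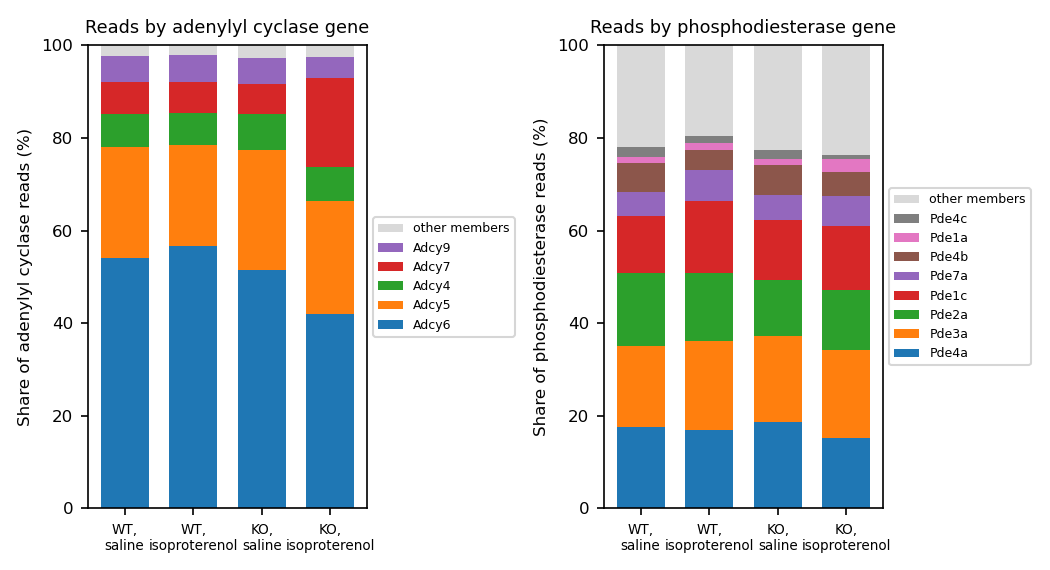
Share of all adenylyl cyclase reads (left, percent) and of all phosphodiesterase reads (right, percent) taken by each named gene in each of the 4 libraries, with all other members in grey. Adcy7 widens to 19.3% of cyclase reads in the treated KO library against 6.5% to 7.08% in the others. Of the main phosphodiesterase segments, Pde4a ran from 15.2% to 18.7%, Pde3a from 17.6% to 19.2%, Pde2a from 12.0% to 15.7% and Pde1c from 12.3% to 15.5%.

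Of the 8 cAMP-specific phosphodiesterases, 0 passed the 1.5-fold rule in WT and 1, Pde4c, was lower in KO. Over all genes 0.797% were lower in WT and 4.22% in KO. Ratios of isoproterenol over saline were below 1 for 7 of the 8 phosphodiesterases in each pair, some with intervals that span 1, where 7151 and 7157 of all 14301 genes were below 1. Their median log2 ratio was -0.29 in WT and -0.50 in KO, where that of all genes was 0.00, and with total-count scaling it was -0.37 and -0.32 where all genes had -0.08 and 0.18. Pde4c, a member of the rolipram-sensitive PDE4 family, was at 13.3, 8.78, 11.8 and 5.17 CPM (341, 182, 270 and 97 reads). Each treated library was below its saline library, and the treated KO library was the lowest. Pde4c was 1.43-fold lower in WT (1.19 to 1.73) and 2.57-fold lower in KO (2.04 to 3.29), and the treated KO library was 1.96-fold below the treated WT library (1.53 to 2.55; 1.7-fold with total-count scaling, 1.32 to 2.2, which ends that call). The log2 responses differed by -0.85 (-1.27 to -0.42), an interval that reaches inside 1.5-fold.

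Pde4b, the PDE4 gene that inflammatory stimuli also induce, was at 37.8, 24.8, 36.9 and 29.5 CPM. It was lower by 1.44-fold in WT (1.3 to 1.61) and 1.42-fold in KO (1.27 to 1.58), nearly the same size in both genotypes, and saline levels of both genotypes lay close together. Pde7b was similar, 1.51-fold lower in WT (1.33 to 1.71) and 1.37-fold in KO (1.2 to 1.56). Pde4a, the most abundant member of its group, was at 105, 98.3, 106 and 85.2 CPM. Its ratio in WT was 0.987 (0.931 to 1.05), and in KO it was 1.41-fold lower (1.32 to 1.5). Pde4d, which sits with the ryanodine receptor and the beta receptors, was at 22.2, 19.7, 23.1 and 15.7 CPM, 1.66-fold lower in KO (1.44 to 1.93). Pde7a went against its group in WT, where it was 1.29-fold higher (1.17 to 1.43), at 31.9, 39.1, 30.7 and 35.3 CPM. Within the PDE4 family, Pde4c took 7.45%, 5.8%, 6.63% and 3.81% of the reads, and Pde4a between 58.9% and 64.9%.

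Dual-specificity phosphodiesterases hydrolyse both cAMP and cGMP. Pde3a, which cGMP inhibits and which milrinone blocks, was at 106, 112, 105 and 106 CPM, 1.12-fold higher after isoproterenol in WT (1.06 to 1.18) and 1.13-fold lower in KO (1.06 to 1.19; ratio 1.01, 0.95 to 1.07, with total-count scaling). Pde1c, the calcium and calmodulin-stimulated enzyme of cardiomyocytes, was at 74.0, 90.2, 73.6 and 77.1 CPM, 1.29-fold higher after isoproterenol in WT (1.21 to 1.37) and 1.08-fold lower in KO (1.01 to 1.16), where total-count scaling turns the direction (ratio 1.05, 0.975 to 1.12). Pde1a, of the same calmodulin-stimulated family and known from smooth muscle and activated fibroblasts, was at 7.53, 8.73, 6.75 and 15.6 CPM (193, 181, 155 and 292 reads). The treated KO library was again the outlying value. Pde1a was 2.03-fold higher after isoproterenol in KO (1.67 to 2.48), and its WT ratio was 1.23 (0.996 to 1.51). The log2 responses differed by 0.73 (0.32 to 1.13), short of the 1.5-fold rule. Reads of Pde1a per read of Pde1c were 0.102, 0.0968, 0.0917 and 0.202 (0.177 to 0.229). In the KO pair 6 of 10 fibroblast markers were higher and 1 lower, and in the WT pair 5 were higher and 0 lower. In the KO pair, of 10 smooth muscle and pericyte markers 2 were higher and 1 lower. The part of these cells in the Pde1a values was not tested.

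Pde2a, the enzyme that cGMP stimulates, was lower in both KO libraries. It was at 94.4 CPM in WT saline, 85.5 CPM in WT isoproterenol, 68.1 CPM in KO saline and 73.2 CPM in KO isoproterenol. KO was lower by 1.34-fold in saline (1.26 to 1.43) and by 1.35-fold in isoproterenol (1.26 to 1.45), under the 1.5-fold rule. Isoproterenol moved it little in either genotype, with ratios of 0.957 (0.9 to 1.02) and 0.947 (0.88 to 1.02). With total-count scaling the difference was 1.39-fold in saline (1.3 to 1.48) and 1.17-fold in isoproterenol (1.09 to 1.25). Adipocyte markers, which summed to 17.4, 24.6, 7.79 and 9.70 CPM, were also lower in KO, 2 of 6 compared in saline and 4 of 6 in isoproterenol, and all 5 erythroid markers had KO over WT ratios below 1 under both treatments. The 10 endothelial markers had 4 KO over WT ratios above 1 and 6 below under each treatment. Their median log2 ratio was -0.01 in saline and -0.09 in isoproterenol. The part of these cell types in the Pde2a values was not tested. Pde2a lies 436236 bases from P2ry6 on chromosome 7 (GRCm38), closer to the targeted gene than any other member on that chromosome. Its identifier (ENSMUSG00000030653) carries another name in GENCODE M21, where 99.2% of its exon bases are shared with the models named Pde2a and Arap1, and Arap1 is also in the deposited table. How reads from shared exons were assigned is not given, so its absolute level is uncertain.

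Of the cGMP-specific phosphodiesterases, the 3 compared had ratios above 1 in both genotypes, and 0 passed the 1.5-fold rule. Of all 14301 genes, 7150 had ratios above 1 in WT, 7144 in KO and 4683 in both. By the 1.5-fold rule 0.86% of all genes were higher in WT and 7.09% in KO. Pde5a, the target of sildenafil, was at 7.57, 9.46, 6.36 and 9.91 CPM, 1.32-fold higher in WT (1.08 to 1.62) and 1.37-fold in KO (1.1 to 1.72). Pde9a, with high affinity for cGMP, was at 4.06, 4.34, 3.96 and 6.23 CPM. Pde6d, at 23.9, 25.0, 21.6 and 29.5 CPM, encodes a carrier of prenylated proteins rather than a catalytic subunit.

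The PKA genes differed in their proportions. Prkar1a, the regulatory subunit of the soluble type I kinase, was at 508 CPM in WT saline, 472 CPM in WT isoproterenol, 514 CPM in KO saline and 679 CPM in KO isoproterenol. Prkaca, the main catalytic subunit, was at 255, 225, 245 and 212 CPM in the same order. The treated KO library therefore held the highest Prkar1a and the lowest Prkaca. Prkar1a was 1.17-fold higher after isoproterenol in KO (1.14 to 1.19) with a WT ratio of 0.982 (0.957 to 1.01), and Prkaca was 1.31-fold lower in KO (1.26 to 1.37) and 1.07-fold lower in WT (1.03 to 1.11). None of these passed the 1.5-fold rule. Inside each library, Prkar1a reads per Prkaca read were 1.99 (1.93 to 2.05), 2.09 (2.02 to 2.17), 2.1 (2.03 to 2.16) and 3.2 (3.09 to 3.32). The intervals of the other 3 libraries overlapped, and the treated KO library lay clear of them.

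Summed over all subunits, regulatory reads per catalytic read were 1.9 (1.85 to 1.95) in WT saline, 1.9 (1.84 to 1.96) in WT isoproterenol, 1.98 (1.92 to 2.03) in KO saline and 2.65 (2.57 to 2.73) in KO isoproterenol. Per length of exon the same ratio was 1.24, 1.27, 1.29 and 1.84. Prkar2a, the type II subunit that most AKAPs bind, was at 118, 101, 119 and 105 CPM, 1.28-fold lower after isoproterenol in KO (1.2 to 1.35) and 1.11-fold in WT (1.05 to 1.17). Prkar1a reads per Prkar2a read were accordingly 4.29, 4.67, 4.33 and 6.44 (6.15 to 6.76). Prkacb was at 77.2, 79.7, 76.3 and 86.8 CPM, and took 23.3%, 26.1%, 23.7% and 29.0% of the catalytic subunit reads. The minor subunits were thinly covered. Prkar1b had 73, 45, 36 and 71 reads (2.85, 2.17, 1.57 and 3.78 CPM), and its log2 responses differed by 1.38 (0.60 to 2.17), a call that rests on these few reads. Prkar2b had 60, 71, 37 and 55 reads.

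**Figure D4:**
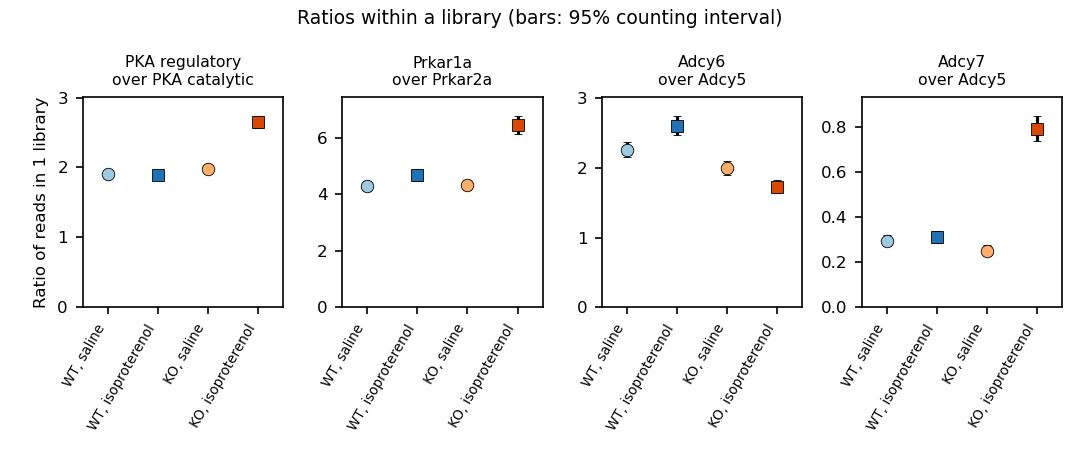
Ratios of reads inside each library, with 95% counting intervals, for PKA regulatory over catalytic subunits, Prkar1a over Prkar2a, Adcy6 over Adcy5 and Adcy7 over Adcy5 (4 panels, vertical axes from 0). The treated KO library is highest in the PKA panels (2.65 and 6.44) and in the Adcy7 panel (0.793), and lowest in the Adcy6 panel (1.73).

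Among the AKAPs, Akap1 was the one member past the 1.5-fold rule. Akap1 tethers PKA to the outer mitochondrial membrane, and was at 180.4 CPM in WT saline, 179 CPM in WT isoproterenol, 199.8 CPM in KO saline and 142 CPM in KO isoproterenol. The WT libraries were nearly equal, and the KO libraries were the highest and the lowest of the 4. In KO it was 1.6-fold lower after isoproterenol (1.52 to 1.68), and 1.41-fold with total-count scaling (1.34 to 1.48), which ends the call. The log2 responses differed by -0.74 (-0.83 to -0.65), or by -0.48 with total-count scaling (-0.57 to -0.39). In the same KO pair 6 of 10 ventricular cardiomyocyte markers were lower; their part in the Akap1 values was not tested. Akap7, a small anchor at the L-type calcium channel, was also lower in KO, by 1.57-fold (1.4 to 1.77), at 30.0, 24.4, 33.3 and 24.1 CPM.

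Other anchors differed less or went the other way. Akap6, the nuclear envelope anchor, was at 145, 121, 159 and 153 CPM, lower by 1.13-fold in WT (1.07 to 1.19) and 1.18-fold in KO (1.13 to 1.24). Akap13 was at 85.3, 86.6, 80.3 and 114 CPM, 1.26-fold higher in KO (1.18 to 1.34) and 1.07-fold in WT (1.01 to 1.14). In CPM, before TMM scaling, Akap12, at 64.0, 55.2, 60.1 and 60.9, and Akap5, at 6.36, 6.03, 5.97 and 5.43, varied little. With TMM scaling Akap12 was lower after isoproterenol in both pairs, with intervals clear of no change, but not so with total-count scaling. Summed AKAP levels, also before TMM scaling, were 712, 657, 742 and 711 CPM.

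The WT pair and the KO pair share no library, so their directions can be set side by side. With TMM scaling, members had intervals clear of no change more often than all genes did. In WT these were 20 of 44 members against 4494 of 14301 genes, and in KO 35 members against 7836 genes. The shares below depend on this and are not read as a result about the families. Counting every gene whose interval was clear of no change in both pairs, 3 members were higher in both (Akap13, Pde5a and Prkar2b; 6.82% of the 44, against 8.59% of all genes). Lower in both were 9 members (20.5%, against 11%), namely Akap6, Akap7, Akap12, Pde4b, Pde4c, Pde7b, Pde8a, Prkaca and Prkar2a. Higher in WT and lower in KO were 5 members (Adcy6, Adcy9, Akap1, Pde1c and Pde3a; 11.4%, against 2.47%), and 0 members were lower in WT and higher in KO, against 1.28% of all genes. With total-count scaling these counts were 3, 9, 1 (Adcy6) and 1 (Prkar1a), against 7.05%, 10.6%, 0.531% and 6.3% of all genes. The names changed in part: Pde7a took the place of Akap13, and Akap8, Pde4a and Pde8b stood among the 9 in place of Akap6, Akap12 and Pde8a. Same-sign ratios were found in 29 of 44 members (65.9%) and in 65.5% of all genes.

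**Figure D5:**
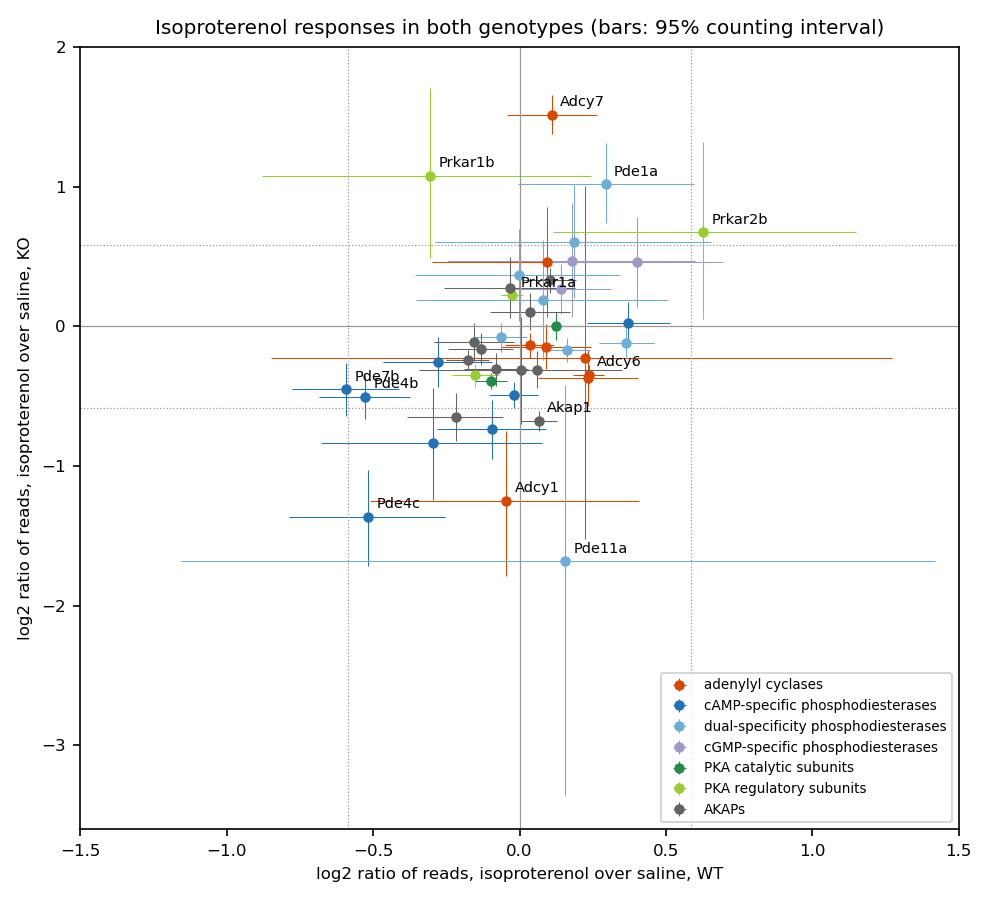
log2 ratio of reads, isoproterenol over saline, in WT (horizontal) and KO (vertical) for the 44 compared genes, coloured by role, with 95% counting intervals and dotted lines at 1.5-fold. Adcy7 and Pde1a lie above the upper dotted line and Adcy1, Pde4c and Akap1 below the lower one with their whole intervals, while no gene does so on the WT axis.

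An additive fit over the 4 libraries asked whether any member differed by treatment or by genotype once the other was allowed for (limma on log2(CPM + 1), with 1 residual degree of freedom). By treatment 0 of 44 members passed a Benjamini-Hochberg adjusted p of 0.05, against 2.57% of all genes, and 5 had an unadjusted p under 0.05. By genotype 0 members passed, against 0.0979% of all genes, and 2 had an unadjusted p under 0.05. The quasi-likelihood test of edgeR, run on the recovered reads, also called 0 and 0, with 6 and 1 at an unadjusted p under 0.05. The lowest adjusted p values by treatment were 0.103 for Adcy7 (log2 difference 0.85, SE 0.26) and 0.11 for Pde4c (-0.80, SE 0.25), both in the limma fit. A smaller pseudocount of 0.1 brings both under 0.05 (0.015 and 0.0468), and dropping the read minimum brings Adcy7 under it (0.000305). With TMM-scaled CPM, the scaling of the folds, the limma fit called 1 gene of all by treatment and 0 members, with a lowest adjusted p of 0.252 (Pde4b). In this fit a response that differs between genotypes counts as error.

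Other genes of the pathway were taken from lists chosen with earlier results known. Of 14 compared receptors and G proteins, 0 were higher or lower in WT and 1 (Gnas) was lower in KO, where 4.22% of all genes were. Adrb1, the main cardiac beta receptor, was at 21.1, 12.3, 18.5 and 14.4 CPM, 1.63-fold lower after isoproterenol in WT (1.4 to 1.9) and 1.46-fold in KO (1.25 to 1.7), with intervals that reach inside 1.5-fold. Gnas, the stimulatory G protein gene, was at 7.92, 5.41, 14.0 and 5.33 CPM and was 2.98-fold lower in KO (2.38 to 3.78), from a saline KO library 1.83-fold above the saline WT one (1.53 to 2.2), a call that ends with total-count scaling. In GENCODE M21, 0 of the 11186 exon bases of Gnas are shared with another gene on the same strand. The authors' annotation release and counting settings are not given, so the level of Gnas is uncertain. Of the 3 PKA inhibitor peptides and the 10 genes of cGMP synthesis and its kinases, 0 passed the rule in either pair. Over all genes 0.86% were higher and 0.797% lower in WT, and 7.09% and 4.22% in KO.

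Of 14 CREB family and cAMP response genes, 4 were lower in each pair and 0 higher, where 0.797% of all genes were lower in WT and 4.22% in KO, beside medians of -0.24 in WT and -0.19 in KO (log2). Nr4a1, an immediate early gene, was at 60.3, 9.70, 41.4 and 14.1 CPM, and Sik1, a kinase that CREB induces, at 71.0, 21.4, 48.7 and 25.6 CPM. Fos was lower in both pairs as well, though its KO call ends with total-count scaling, while Nr4a3 was lower in WT and the clock gene Per1 in KO. Among other cAMP effectors, the channel gene Hcn2 was lower in KO (2.18-fold, 1.93 to 2.47), and 0 passed in WT. Of 11 cardiac PKA substrates, Hspb6 was higher in WT (1.59-fold, 1.56 to 1.63) and Tnni3, troponin I, was lower in KO (1.69-fold, 1.67 to 1.71), and both calls end with total-count scaling. Of 12 other A-kinase anchors, Gskip (1.83-fold, 1.53 to 2.19) and Rab32 (3.26-fold, 2.25 to 4.91) were higher in KO, and 0 passed in WT. Over all genes 0.86% were higher and 0.797% lower in WT, and 7.09% and 4.22% in KO. For the effectors, substrates and other anchors, such small counts say nothing particular of the list. The CREB list was also chosen with earlier results known, so its counts are no test of the cAMP response. No CREB family or coactivator gene of that list was among those called.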

How the data were processed

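For messenger RNA of mouse ventricles, CPM (reads for every 1000000 in a library) were deposited by the authors. The submitters' processing notes name HTSeq for counting and GRCm38.p4 (mm10), with the aligner, annotation release and settings not given in the sources used here. A column named by genotype only was read as the saline group. Each deposited CPM column is a whole multiple of its smallest value (100% of values within 0.01 reads), so reads were recovered, 18771198 to 25637369 a library.

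Ratios of 2 libraries used TMM factors (edgeR 4.0.16; 0.999, 0.946, 0.966 and 1.096) over the 14301 genes averaging 10 or more reads, 0.5 added to each count, and exact conditional 95% intervals. The labels name no molecular identifiers, and reads then are not independent molecules, so intervals and the 3-read limit for a count of 0 cover counting error only. The additive fit used limma 3.58.1 on log2(CPM + 1), without scaling between libraries, with Benjamini-Hochberg adjustment; it called 368 genes by treatment and 14 by genotype. On the recovered reads, the quasi-likelihood test of edgeR called 22 and 3. Both were tested on simulated data with 200 changed genes. Exon lengths and overlaps came from GENCODE M21 (GRCm38), which matched 46005 of 46603 identifiers and may differ from the authors' annotation.

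Members and lists were chosen with earlier results of these data known. The rule named every member beyond 1.5-fold in a comparison, the 3 most abundant of each role, list genes beyond 1.5-fold in the WT or KO pair, Adrb1 and Gnas; other genes named were chosen after their values were seen. A gene that the rule takes in is not reported here. Alternatives were total-count, DESeq2 1.42.0 and non-mitochondrial scaling, no read minimum, a 2-fold threshold and, for the fit, a pseudocount of 0.1 and TMM-scaled CPM.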

Additional observations from a re-analysis of the deposited data

Results flagged for a closer look

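For 5 members the isoproterenol ratio lay above 1 in the WT pair and below 1 in the KO pair with both counting intervals clear of 1. The difference of these responses between genotypes was not tested, since each response comes from 1 library against 1. The log2 difference, KO minus WT, was -0.74 for Akap1 (-0.83 to -0.65), the mitochondrial PKA anchor, and -0.60 for the cyclase Adcy9 (-0.86 to -0.34). It was -0.58 for the cyclase Adcy6 (-0.67 to -0.50), -0.48 for the phosphodiesterase Pde1c (-0.62 to -0.34) and -0.33 for Pde3a (-0.45 to -0.21). With total-count scaling Adcy6 alone kept opposite directions with both intervals clear of 1, at log2 ratios of 0.16 in WT and -0.16 in KO. Akap1 lay close to no change in WT, at a ratio of 1.05 (1.002 to 1.09), or log2 -0.015 with total-count scaling.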

How the results depend on the processing

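Total-count scaling left 1 of 3 members lower in the KO pair (Pde4c), 0 of 2 lower between the isoproterenol libraries and 0 of 1 below the difference rule, and gave 3 higher in the KO pair by adding Prkar1b to Adcy7 and Pde1a. Over all genes the KO pair counts went the same way, from 1014 to 1445 higher and from 604 to 357 lower. A 2-fold threshold left 1 member higher and 1 lower in the KO pair, 0 lower between the isoproterenol libraries, and 1 above and 0 below in the difference. DESeq2 size factors, scaling without mitochondrial genome genes and no read minimum changed none of these counts by more than 1.5 times. In the additive fit, which called 0 members by treatment, a pseudocount of 0.1 gave 2 and no read minimum gave 1. Of 220 member ratios and differences, total-count scaling moved 79, ended 5 calls and added 1, by its own construction, since it shifts all genes together. It turned the sign of 5 to 10 of the 44 members in each comparison, none of them called. No called direction reversed under these alternatives. No paired analysis was possible because each group has 1 library and the labels carry no replicate numbers, and leaving out a library could not be run, since the additive fit then has no residual degrees of freedom. Depth limits the members with few reads, such as Prkar1b, Prkar2b, Adcy8 and Pde11a, whose intervals span more than 1.5-fold.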
